A study of Mus musculus with 6 samples.

Results

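The genes described here are 10 imprinted genes of growth control, *H19*, *Dlk1*, *Meg3*, *Mest*, *Peg3*, *Plagl1*, *Grb10*, *Ndn*, *Zim1* and *Peg10*. They were taken by name from the 43346 genes of the count table, and were chosen with earlier results of these data known. Each name had a single row, and all 10 genes were among the 17589 genes tested. RNA-seq of polyadenylated RNA compared 3 control and 3 senescent samples of mouse adult fibroblasts (MAFs), which are primary cells cultured from ear tissue of female C57BL6/J mice of adult age. Senescent MAFs were exposed to 20 Gy of X-rays and cultured for 21 days after that, whereas control MAFs were sham irradiated. Both groups were grown at 3% oxygen and used at passages 3 to 8, and both were given 100 nM dexamethasone, a glucocorticoid that synchronizes the clocks of cultured cells, for 2 hours and collected 12 hours later. No sample went without dexamethasone, so the values describe that single time point, and irradiation and senescence cannot be told apart. The comparison asks how the transcriptome of senescent MAFs differs from that of proliferating MAFs. The sources used here do not say whether the 3 samples of a group came from separate mice, so p-values measure the spread between these samples, which may be technical.

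Imprinted genes are transcribed from a single parental chromosome, because DNA methylation laid down in the germline differs between the parental copies. They lie in clusters that often pair a noncoding RNA expressed from the maternal copy with protein-coding genes expressed from the paternal copy, as for *H19* and *Igf2* or *Meg3* and *Dlk1*. Many of them control fetal growth, are abundant in embryonic tissues and decline after birth, and in cultured mesenchymal cells several of them remain active. The reads carried no parental information here, so each value is the sum over both chromosomes and says nothing about imprinting itself.

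Total counts lay between 50288454 and 61747564 in the control libraries and between 53792998 and 82229553 in the senescent libraries. Senescent replicate 3 stood apart: the squared differences between replicates, relative to counting chance, had a median of 12.7 and 16.3 for its pairs with senescent replicates 1 and 2, against 2.14 for those replicates with each other. The group labels were checked on 4 genes, of which *Cdkn1a* rose from 123 to 619 CPM (counts scaled by TMM to a common library total) and *Cdkn2a* from 1.20 to 4.50 CPM, while *Mki67* fell from 589 to 9.60 CPM and *Lmnb1* from 79.4 to 6.76 CPM. All 9 fibroblast markers were detected. Markers of chondrocytes, the cartilage cells that ear tissue also holds, summed to between 7400 and 7930 CPM in the control libraries and to between 631 and 723 CPM in the senescent libraries. In bulk RNA, fewer cells of a type and less RNA per cell cannot be told apart.

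The imprinted growth genes were mostly lower in senescent MAFs. *H19*, *Meg3*, *Dlk1*, *Grb10*, *Peg3*, *Mest* and *Peg10* fell, *Zim1* and *Ndn* rose, and *Plagl1* did not pass the test. Thus 9 of the 10 genes had an adjusted p under 0.05 in the quasi-likelihood test of edgeR, against 70.3% of all tested genes. The 7 genes that fell compare with 34.1% of all tested genes that were lower, and the 2 that rose with 36.2% that were higher. In 9 of the 10 genes the groups did not overlap, which held for 75.3% of all tested genes. *Zim1* passed the filter on low counts only through the senescent libraries, as 0 of the 3 control libraries reached the limit of 0.173 CPM, so its presence among the tested genes was tied to its being higher. At the limit for differentially expressed genes (DEGs) of the study's methods, an unadjusted p under 0.05 with an absolute log2 fold change above 1, 6 of the 10 passed, against 30.1% of all tested genes, of which 5 were lower (*H19*, *Dlk1*, *Grb10*, *Mest* and *Peg10*) and 1 was higher (*Zim1*), where 12.3% of all tested genes were lower and 17.8% higher.

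**Figure D1:**
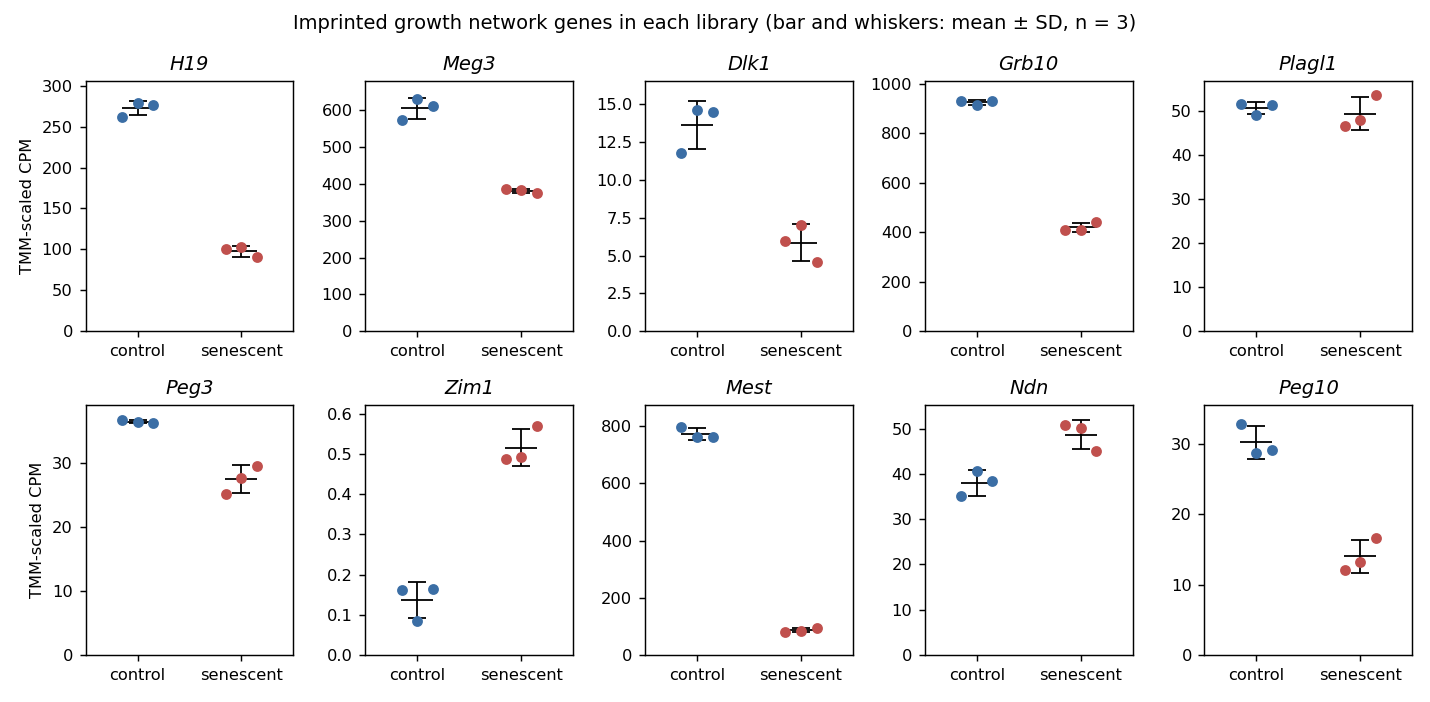
Level of each of the 10 genes in each library, in TMM-scaled CPM on linear axes whose range differs between genes, with 3 control and 3 senescent points per gene and bars for the mean ± SD. *Mest* shows the widest gap, from between 761 and 798 CPM in control to between 81.9 and 95.4 CPM in senescent MAFs, and *Plagl1* is the gene whose groups overlap.

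The log2 fold changes (senescent over control) ranged from -3.16 for *Mest* to 1.95 for *Zim1*, with a median of -0.89, where the median over all tested genes was 0.01. Their median size without sign was 1.12, against 0.576 for all tested genes. Ranked among all tested genes, 1.56% had a lower log2 fold change than *Mest*, 6.37% than *H19*, 9.07% than *Dlk1*, 10.2% than *Grb10* and 10.7% than *Peg10*. *Meg3* and *Peg3* lay nearer the centre, with 20.5% and 30.0% of genes below them. The genes of the maternal copy (*H19*, *Meg3*, *Grb10* and *Zim1*) included 3 that fell and 1 that rose, and those of the paternal copy 4 that fell, 1 that rose and 1 that did not pass. The maternal gene that rose was *Zim1*, which was tested only through the senescent libraries.

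**Figure D2:**
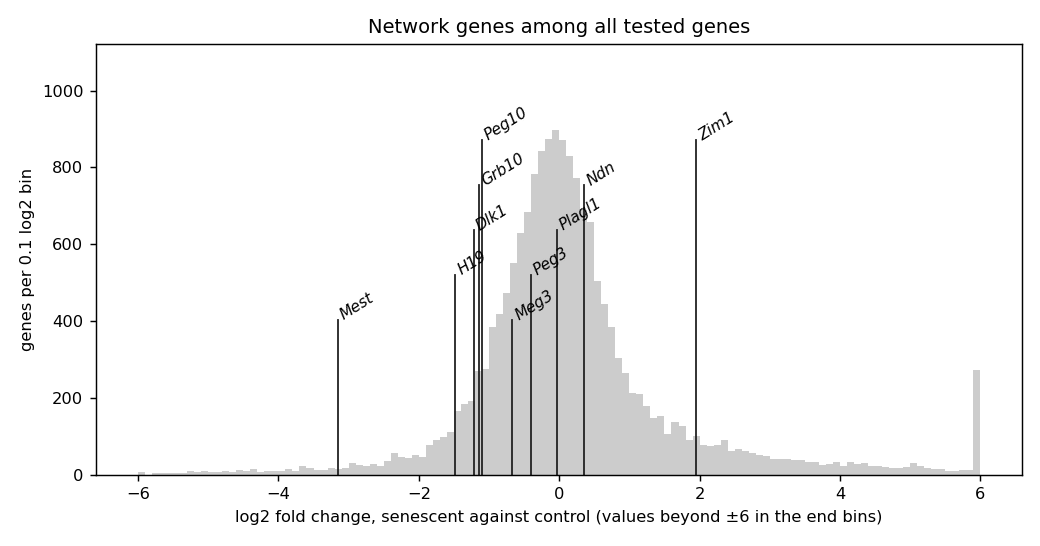
Histogram of log2 fold changes, senescent over control, of all 17589 tested genes in bins, with values beyond 6 in either direction set at the ends and a line for each of the 10 genes. *Mest* at -3.16 lies in the lower tail and *Zim1* at 1.95 in the upper part, while *Plagl1* at -0.04 lies at the centre.

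The noncoding RNAs *H19* and *Meg3* also carry microRNAs, and *Mest* holds another in an intron, so the transcripts counted here overlap precursors of short regulatory RNAs. Their 7 mature forms are shown because they are the products that the host transcripts could give. The sequences are from RefSeq (GRCm38.p6), 5′ to 3′, with the seed (bases 2 to 8), the stretch that pairs with target mRNAs, in capitals.
mmu-miR-675-5p: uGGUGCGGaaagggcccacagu
mmu-miR-675-3p: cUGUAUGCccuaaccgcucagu
mmu-miR-335-5p: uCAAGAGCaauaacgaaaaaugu
mmu-miR-335-3p: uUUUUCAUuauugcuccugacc
mmu-miR-770-5p: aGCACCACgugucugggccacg
mmu-miR-770-3p: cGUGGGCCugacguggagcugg
mmu-miR-1906: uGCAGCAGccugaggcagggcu
The 7 seeds were all different. miR-675 lies in an exon of *H19* (its 5p arm at chr7:142577112-142577133) and miR-335 in an intron of *Mest* (5p arm at chr6:30741314-30741336). In *Meg3*, miR-770 is exonic in 1 and miR-1906 in 5 of the 11 annotated transcripts. Libraries of polyadenylated RNA do not measure mature microRNAs, so their levels are not known from these data.

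*H19*, an abundant noncoding RNA of the maternal chromosome that restrains fetal growth, fell. Its levels were 262, 279 and 277 CPM in the control libraries and 99.9, 102 and 90.4 CPM in the senescent libraries (273 ± 8.99 and 97.6 ± 6.28 CPM, mean ± SD, n = 3 each). All senescent libraries lay below all control libraries, with the lowest level in senescent replicate 3. The log2 fold change was -1.48 (SE 0.07, adjusted p = 6.08e-07, quasi-likelihood test of edgeR), a 2.79-fold lower level. The gene (ENSMUSG00000000031) lies at chr7:142575529-142578143 in the build of the table, mm10, and has 2372 exonic bases there.

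The count table also has rows for the microRNA hairpins. Reads over *Mir675*, whose sequence is part of *H19* and cannot be told apart from it, numbered 623, 784 and 605 in control and 197, 346 and 215 in senescent libraries, and the row fell with a log2 fold change of -1.86 (SE 0.18, adjusted p = 4.23e-05, edgeR). These counts equalled 4.76%, 4.70% and 4.47% of the *H19* counts in control and 3.56%, 4.27% and 2.82% in senescent libraries, so the groups did not overlap in this share. *Mir335*, in the *Mest* intron, had 9, 14 and 7 counts in control and 3, 5 and 10 in senescent libraries, too few to be tested. *Mir770*, within *Meg3*, had 4, 7 and 4 counts in control and 4, 6 and 3 in senescent libraries, also too few. The *Mir1906-1* row, within *Meg3*, fell with its host (log2 fold change -0.57, adjusted p = 6.41e-04, edgeR), at 2.75% to 3.34% of the *Meg3* counts.

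*Meg3*, the maternally expressed noncoding RNA of the *Dlk1*-*Dio3* cluster and a known activator of p53 in tumor cells, fell less than *H19*. Control libraries had 575, 631 and 612 CPM and senescent libraries 387, 383 and 376 CPM (606 ± 28.5 and 382 ± 5.35 CPM). The senescent libraries were closer to each other than the control libraries were, and the groups did not overlap. The log2 fold change was -0.67 (SE 0.06, adjusted p = 1.98e-05, edgeR), a 1.59-fold lower level. *Meg3* (ENSMUSG00000021268) spans chr12:109541001-109571726. Its neighbours *Rian* and *Mirg*, further noncoding RNAs of the same strand and parental copy that host small nucleolar RNAs and microRNAs, fell as well. *Rian* went from 576 ± 15.6 to 367 ± 48.8 CPM (log2 fold change -0.65, adjusted p = 4.06e-04, edgeR) and *Mirg* from 20.6 ± 1.24 to 14.9 ± 0.178 CPM (log2 fold change -0.47, adjusted p = 6.71e-04, edgeR).

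*Dlk1* and *Grb10* encode signaling proteins. *Dlk1* (ENSMUSG00000040856, chr12:109452823-109463336), the paternally expressed membrane protein of the Notch ligand family also called Pref-1 that holds back adipocyte differentiation, fell. It had 11.8, 14.6 and 14.5 CPM in control and 5.99, 7.04 and 4.56 CPM in senescent libraries (13.6 ± 1.60 and 5.86 ± 1.24 CPM). Senescent replicate 3 was the lowest library, and the groups did not overlap. The log2 fold change was -1.22 (SE 0.17, adjusted p = 3.15e-04, edgeR), which was -1.05 without senescent replicate 3. Its spread among senescent libraries, 21.2% of the mean, was the largest of the 10 genes in that group. Among the 8 markers of adipocytes, the cells whose formation *Dlk1* restrains, 5 were tested, of which 2 rose and 3 fell, and the list summed to between 109 and 114 CPM in control and to between 60.9 and 66.1 CPM in senescent libraries. The part of these cells in the result was not tested.

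*Grb10*, an adaptor protein that binds insulin and IGF1 receptors and dampens their signal, fell. Its level was 933, 913 and 932 CPM in control and 410.0, 408 and 442 CPM in senescent libraries (926 ± 10.9 and 419.9 ± 18.9 CPM). No senescent library came near the control libraries. This gave a log2 fold change of -1.14 (SE 0.06, adjusted p = 8.89e-07, edgeR), a 2.21-fold lower level. *Grb10* (ENSMUSG00000020176) lies at chr11:11930508-12038683. Among 14 genes of the receptors and adaptors around *Grb10* and *Dlk1*, all tested, 1 was higher, 6 were lower and 7 did not pass. Their median log2 fold change was -0.04, and 36.2% of all tested genes were higher and 34.1% lower. The insulin receptor substrate *Irs1* fell from 234 ± 3.45 to 64.8 ± 3.97 CPM (log2 fold change -1.85, adjusted p = 1.57e-07, edgeR), and *Nedd4*, the ubiquitin ligase that partners *Grb10*, from 2752 ± 94.0 to 1319 ± 102 CPM (log2 fold change -1.06, adjusted p = 4.95e-06, edgeR). The receptor gene *Igf1r* rose from 88.3 ± 2.39 to 127 ± 8.33 CPM (log2 fold change 0.52, adjusted p = 1.86e-04, edgeR). *Notch1*, the receptor that *Dlk1* can bind, fell from 48.6 ± 4.25 to 25.2 ± 6.16 CPM (log2 fold change -0.95, adjusted p = 0.00158, edgeR).

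Of the zinc finger proteins, *Plagl1*, *Peg3* and *Zim1*, each behaved differently. *Plagl1* (ENSMUSG00000019817, chr10:13060504-13131694), also known as Zac1, is a transcription factor of the paternal copy that arrests the cell cycle and is known to act on other imprinted genes. Its levels were 51.5, 49.0 and 51.5 CPM in control and 46.6, 48.0 and 53.7 CPM in senescent libraries (50.7 ± 1.43 and 49.4 ± 3.77 CPM). Senescent replicate 3 was above every control library and the other senescent libraries were below them, so the groups overlapped. The log2 fold change was -0.04 with a 95% confidence interval from -0.20 to 0.13 (adjusted p = 0.670, edgeR), which leaves room for a change of that size in either direction.

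*Peg3* (ENSMUSG00000002265, chr7:6703892-6730421), a paternally expressed zinc finger protein linked to p53-dependent cell death and to maternal behavior, fell slightly. Levels of 36.7, 36.5 and 36.4 CPM in control faced 25.2, 27.7 and 29.7 CPM in senescent libraries (36.5 ± 0.191 and 27.5 ± 2.24 CPM). The control libraries were nearly equal and every senescent library was below them. Its log2 fold change was -0.41 (SE 0.07, adjusted p = 0.00155, edgeR). *Zim1* (ENSMUSG00000002266, chr7:6675443-6696450), the maternally expressed zinc finger gene beside *Peg3*, was barely detected in control MAFs, with 8, 5 and 8 counts, and had 27, 39 and 48 counts in senescent MAFs. These are 0.160, 0.0836 and 0.163 CPM against 0.487, 0.492 and 0.568 CPM. The groups did not overlap, and the log2 fold change was 1.95 (SE 0.29, adjusted p = 5.16e-04, edgeR). As stated above, *Zim1* passed the filter only through the senescent libraries, so its being tested was tied to its being higher. At a spread of 33.3% of the mean in control, *Zim1* was the least precisely measured of the 10 genes.

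The remaining proteins were *Mest*, *Ndn* and *Peg10*. *Mest* (ENSMUSG00000051855, chr6:30723547-30748455), a paternally expressed membrane protein with the fold of a hydrolase that is high in embryonic mesoderm and in expanding fat tissue, fell the most of the 10 genes. It had 798, 763 and 761 CPM in control and 81.9, 82.9 and 95.4 CPM in senescent libraries (774 ± 20.7 and 86.7 ± 7.52 CPM). The lowest control library exceeded the highest senescent library by far. The log2 fold change was -3.16 (SE 0.08, adjusted p = 3.30e-08, edgeR), an 8.92-fold lower level. *Mest* exons share 912 bases with exons of *Copg2* on the opposite strand, which is 23.1% of the merged exon length, and the sources used here do not state whether strand was used in counting. *Copg2* had 79.7 ± 3.39 CPM in control and 65.9 ± 6.25 CPM in senescent MAFs.

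*Ndn*, encoding necdin, a growth suppressor of the MAGE family within the Prader-Willi region, rose slightly. Its levels were 35.0, 40.7 and 38.5 CPM in control and 50.8, 50.2 and 45.1 CPM in senescent libraries (38.1 ± 2.84 and 48.7 ± 3.16 CPM). Senescent replicate 3 came closest to the control libraries but did not overlap them. *Ndn* had a log2 fold change of 0.35 (SE 0.08, adjusted p = 0.00448, edgeR). *Ndn* (ENSMUSG00000033585) lies at chr7:62348277-62349928. *Peg10* (ENSMUSG00000092035, chr6:4747306-4760517), a gene derived from a retrotransposon whose capsid-like protein is needed for the placenta, fell. Control libraries held 32.9, 28.7 and 29.2 CPM and senescent libraries 12.1, 13.3 and 16.7 CPM (30.2 ± 2.28 and 14.03 ± 2.38 CPM). With no overlap between groups, its log2 fold change was -1.11 (SE 0.13, adjusted p = 1.16e-04, edgeR).

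Chondrocyte markers moved with the genes that fell, as 11 of the 12 tested of the 13 listed were lower, with a median log2 fold change of -3.39, 1 was higher and none was at 0 in every control library. Their part in the lower level of *Mest*, *H19* or the others was not tested. The 9 fibroblast markers also summed to less in senescent MAFs (between 17605 and 19681 CPM in control, between 6509 and 7765 CPM in senescent libraries), 3 being higher and 6 lower. Markers of other cell types were low, with sums of at most 0.641 CPM in control and 1.84 CPM in senescent libraries for skeletal muscle (2 of 2 tested higher, with *Myod1*, *Pax7* and *Myh3* at 0 in control), 2.93 and 8.71 CPM for endothelium (5 of 5 higher) and 6.46 and 16.6 CPM for macrophages (5 of 5 higher). Keratinocyte markers reached 16.6 and 22.3 CPM (1 higher and 1 lower of 4 tested, *Ivl* at 0 in control) and Schwann cell and melanocyte markers 50.8 and 43.2 CPM (1 higher and 3 lower of 5 tested, *Sox10* at 0 in control).

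To compare the genes with each other, levels were divided by the exonic length of each gene. In control MAFs the order in CPM per kb was *Mest* (197 ± 5.26), *H19* (115 ± 3.79), *Grb10* (102 ± 1.20), *Meg3* (33.5 ± 1.58), *Ndn* (23.0 ± 1.72), *Plagl1* (6.48 ± 0.183), *Peg10* (4.54 ± 0.342), *Peg3* (2.74 ± 0.0143), *Dlk1* (2.41 ± 0.283) and *Zim1* (0.0373 ± 0.0124), and no neighbours in this order overlapped. In senescent MAFs *Grb10* came first at 46.2 ± 2.08 CPM per kb, followed by *H19* (41.1 ± 2.65), *Ndn* (29.5 ± 1.91), *Mest* (22.0 ± 1.91) and *Meg3* (21.1 ± 0.296). The libraries of *Mest* and *Meg3* overlapped there, as did those of *Peg10* (2.10 ± 0.357) and *Peg3* (2.07 ± 0.168). *Mest* was thus at rank 1 in control and rank 4 in senescent MAFs, and *Ndn* at rank 5 and rank 3. The place of *Ndn* rests on its length, which is 1652 bases in the count table and 3694 bases in GENCODE M21. With the M21 lengths *Ndn* had 10.3 ± 0.769 CPM per kb in control and 13.2 ± 0.855 CPM per kb in senescent MAFs and was at rank 5 in both groups, and *Mest* was at rank 3 in senescent MAFs.

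The 10 genes together had 486 ± 1.02 CPM per kb in control and 172 ± 0.599 CPM per kb in senescent MAFs. Of this sum *Mest* held 40.4% ± 1.15 in control and 12.8% ± 1.11 in senescent MAFs. The share of *Ndn* was 4.74% ± 0.344 and then 17.2% ± 1.12 (2.20% ± 0.164 and 8.58% ± 0.620 with the M21 lengths), that of *Meg3* 6.89% ± 0.311 and then 12.3% ± 0.192, and that of *Grb10* 20.96% ± 0.288 and then 26.9% ± 1.23. *H19* kept close to the same share, 23.6% ± 0.740 and 24.0% ± 1.53, since it fell about as much as the sum. These shares add to 100% in each library, so a lower share of *Mest* raises the others.

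**Figure D3:**
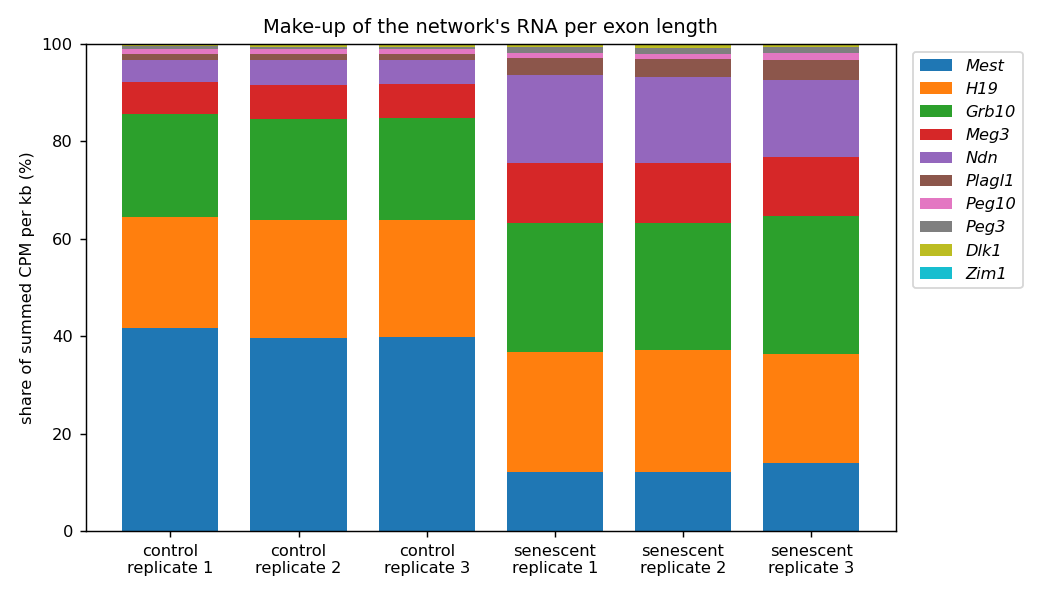
Share of each of the 10 genes in their summed level per kb of exonic length, in percent, as stacked bars for the 3 control and 3 senescent libraries. *Mest* shrinks from 40.4% to 12.8% on average while *Ndn* grows from 4.74% to 17.2%, with the gene lengths of the count table.

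Genes that share a cluster with the 10 were followed next. Of 35 neighbours listed, 31 rows were found and 25 were tested, of which 12 were higher, 7 were lower and 6 did not pass, with a median log2 fold change of 0.28, where 36.2% of all tested genes were higher and 34.1% lower. Of the 12 that were higher, 3 (*Igf2os*, *Asb4* and *Tfpi2*) passed the filter on low counts only through the senescent libraries. No row was found for *Hymai*, *Zim2*, *Zim3*, *Zfp264* and *Apeg3*, so they were not analysed here, and *Snrpn* had 2 rows. Beside *H19*, *Igf2* (chr7:142650766-142666816), the fetal growth factor expressed from the paternal copy, had 20.8, 21.8 and 22.2 CPM in control and 307, 317 and 324 CPM in senescent libraries (21.6 ± 0.748 and 316 ± 8.36 CPM). All senescent libraries were above the control libraries, and *Igf2* rose with a log2 fold change of 3.87 (SE 0.06, adjusted p = 9.63e-09, edgeR). The antisense row *Igf2os* rose as well, from 0.124 to 0.870 CPM, and its exons share 98 bases with those of *Igf2*, where reads cannot be told apart if strand was not used. *Ins2* was at 0 in all libraries and *Nctc1* had 2 counts in senescent replicate 1 alone.

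In the *Dlk1*-*Dio3* cluster, *Dio3*, which inactivates thyroid hormone, fell from 5.27 ± 0.464 to 1.80 ± 0.412 CPM (log2 fold change -1.55, adjusted p = 1.10e-04, edgeR), and *Begain* rose from 1.72 to 2.89 CPM (log2 fold change 0.74, adjusted p = 0.00571, edgeR). *Rtl1*, the retrotransposon-like gene of the paternal copy, had 1, 0 and 0 counts in control and 3, 7 and 6 in senescent libraries. Beside *Grb10*, the decarboxylase gene *Ddc* fell from 0.647 to 0.0643 CPM and the actin regulator *Cobl* rose from 15.9 to 35.5 CPM. *Ddc* passed the filter on low counts only through the control libraries, so its being tested was tied to its being lower. *Phactr2*, near *Plagl1*, had 51.5 ± 1.06 and 44.9 ± 3.91 CPM (log2 fold change -0.20, adjusted p = 0.0423, edgeR), a call that was lost in 10 of 13 other settings, with adjusted p from 0.0623 to 0.181, among them leaving out any library but senescent replicate 3. *Usp29*, near *Peg3*, had no counts in control and 0, 3 and 2 in senescent libraries.

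Around *Mest*, *Cep41* fell from 23.3 to 16.5 CPM (log2 fold change -0.50, adjusted p = 0.00108, edgeR) and *Klhdc10* had 92.9 and 96.0 CPM (log2 fold change 0.05, adjusted p = 0.547, edgeR). *Copg2* had a log2 fold change of -0.27 (adjusted p = 0.0146, edgeR), and its call was lost in 4 of 13 other settings, with adjusted p from 0.0518 to 0.0566. These were scaling by library size alone and leaving out control replicate 1, senescent replicate 1 or senescent replicate 2. In the Prader-Willi region with *Ndn*, both rows named *Snrpn* (3.48 to 7.96 CPM and 5.42 to 12.98 CPM), *Snurf* (1.45 to 3.27 CPM) and the ubiquitin ligase gene *Ube3a* (63.8 to 101 CPM) rose, with log2 fold changes of 1.20, 1.26, 1.17 and 0.67. *Snrpn* and *Snurf* share exons, so the split of reads between their rows is uncertain. *Mkrn3* (log2 fold change -0.36, adjusted p = 0.216) and *Peg12* (0.10, adjusted p = 0.435, both edgeR) did not pass, and *Magel2* had no counts in control and 4, 3 and 4 counts in senescent libraries.

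*Peg10* shares a bidirectional promoter region with *Sgce*, a paternally expressed sarcoglycan gene. *Sgce* had 38.6, 39.5 and 38.2 CPM in control and 38.3, 35.7 and 38.4 CPM in senescent libraries, so its groups overlapped (log2 fold change -0.05, adjusted p = 0.488, edgeR). Farther out, the protease inhibitor gene *Tfpi2* rose from 0.0593 to 1.43 CPM (log2 fold change 4.47), the paraoxonase genes *Pon2* from 39.0 to 78.4 CPM (1.01) and *Pon3* from 46.0 to 55.6 CPM (0.28), and *Asb4* from 4, 2 and 1 counts to 12, 19 and 32 counts (2.63). *Tfpi2* had 1, 7 and 2 counts in control. *Tfpi2* and *Asb4* passed the filter on low counts only through the senescent libraries, so their being tested was tied to their being higher. The call of *Pon3* was lost without control replicate 2 or control replicate 3, with adjusted p of 0.0685 and 0.0940 (edgeR). *Ppp1r9a* (log2 fold change 0.28, adjusted p = 0.0562) and *Casd1* (-0.21, adjusted p = 0.109, both edgeR) did not pass. *Ppp1r9a* passed in 6 of 13 other settings, among them leaving out senescent replicate 1, with adjusted p from 0.0189 to 0.0487, and *Casd1* without senescent replicate 3, at an adjusted p of 5.51e-05. *Calcr* had no counts in control and 2, 1 and 5 in senescent libraries.

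**Figure D4:**
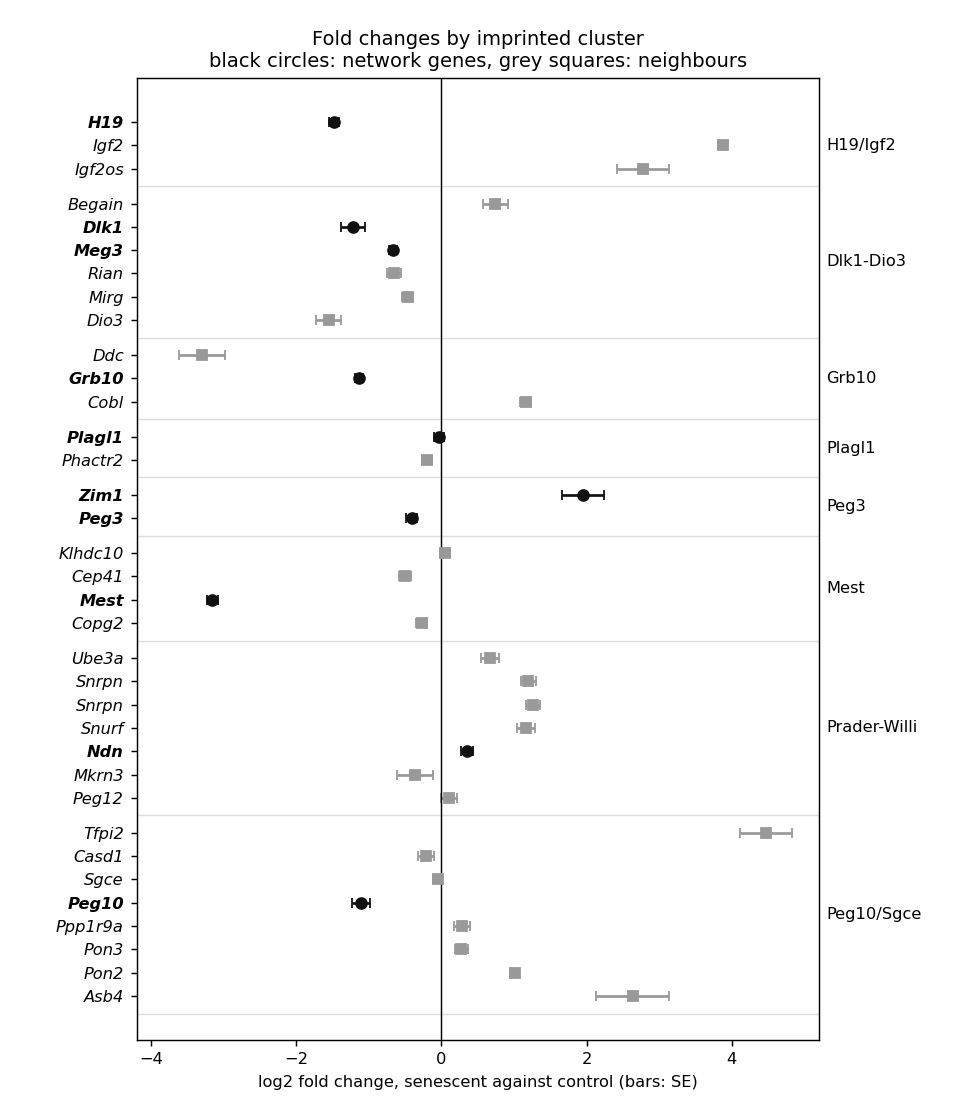
Log2 fold change, senescent over control, with bars for the SE, of the 10 genes (black circles) and their tested cluster neighbours (grey squares), arranged by cluster (*Snrpn* has a point for each of its 2 rows). *H19* at -1.48 and *Igf2* at 3.87 point in opposite directions, whereas *Meg3*, *Rian* and *Mirg* all lie between -0.67 and -0.47.

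The relation of each gene to a neighbour was also followed within each library, as the log2 ratio of their counts, which removes library scaling. The ratio depends on both gene lengths, so its change between groups is the quantity of interest. The ratio of *H19* to *Igf2* was 3.66, 3.68 and 3.64 in control and -1.62, -1.63 and -1.84 in senescent libraries, a difference of -5.36 (SE 0.07) or 40.9-fold. In control MAFs *H19* had 12.6 counts for each count of *Igf2*, and in senescent MAFs 0.308. The ratio of *Copg2* to *Mest* differed by 2.88 (SE 0.03), that of *Zim1* to *Peg3* by 2.40 (SE 0.32), that of *Sgce* to *Peg10* by 1.07 (SE 0.15) and that of *Meg3* to *Dlk1* by 0.57 (SE 0.19), all higher in senescent MAFs without overlap. *Rian* to *Meg3* differed by 0.01 (SE 0.13) with overlapping groups. In an exact two-sided permutation test with 3 libraries a group the smallest possible p is 0.1, which the 5 ratios without overlap reached (0.12 after Benjamini-Hochberg adjustment over the 6 ratios), and *Rian* to *Meg3* had an exact permutation p of 1.

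**Figure D5:**
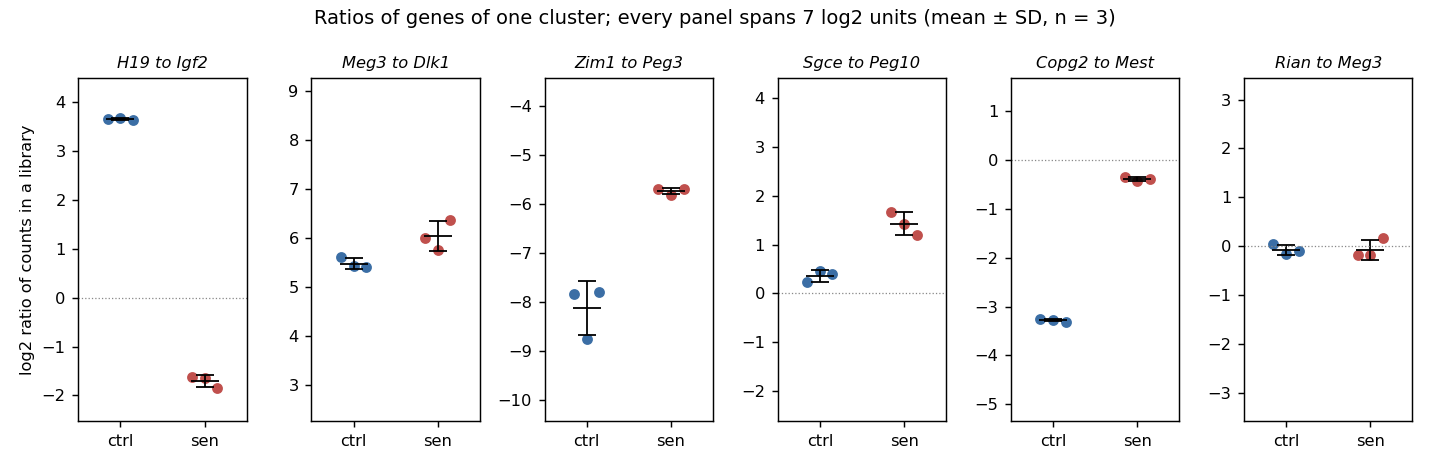
Log2 ratio of counts of 2 genes of the same cluster in each control (ctrl) and senescent (sen) library, with mean ± SD, each panel spanning the same number of log2 units. *H19* to *Igf2* drops from a mean of 3.66 to -1.70, *Copg2* to *Mest* climbs from -3.28 to -0.40, and *Rian* to *Meg3* has means of -0.07 in both groups.

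Of 22 other imprinted genes listed, 21 were tested, with 11 higher, 4 lower and 6 not passing and a median log2 fold change of 0.51. Of all tested genes 36.2% were higher and 34.1% lower. Of the 11, 2 (*Phlda2* and *Zdbf2*) passed the filter on low counts only through the senescent libraries. *Ascl2* and *Nnat* also needed the senescent libraries, as only 1 and 2 of their control libraries reached the limit. *Dcn*, the collagen-binding proteoglycan decorin that is imprinted in the mouse placenta and abundant in fibroblasts, and so also among the fibroblast markers above, rose from 56.6 ± 0.376 to 642 ± 65.2 CPM (log2 fold change 3.50, adjusted p = 3.18e-08, edgeR). *Impact*, a regulator of translation, rose from 90.5 ± 4.27 to 212 ± 26.9 CPM (1.23, adjusted p = 1.29e-05), and *Slc22a18* and *Rasgrf1* rose with log2 fold changes of 1.43 and 1.55. In the other direction *Slc38a4*, an amino acid transporter of the placenta, fell from 11.2 ± 0.662 to 1.72 ± 0.185 CPM (-2.69, adjusted p = 3.84e-07, edgeR). *Cdkn1c*, the cell cycle inhibitor p57, had 5.14 ± 0.598 and 4.05 ± 0.152 CPM (-0.34, adjusted p = 0.0237, edgeR), and that call was lost in 4 of 13 other settings, among them leaving out control replicate 3 or senescent replicate 1, with adjusted p from 0.0586 to 0.0920. No row was found for *Peg13*, so it was not analysed here.

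Genes known to maintain imprints were tested for 13 of 14 listed, with a median log2 fold change of -0.56. In edgeR's test 0 were higher, 10 were lower and 3 did not pass, where 36.2% of all tested genes were higher and 34.1% lower. The number lower ranged from 8, as with library size alone, to 12 without senescent replicate 3. At an unadjusted p under 0.05 in edgeR, and in DESeq2, 0 were higher too. Several of them copy methylation at replication forks and are known to be high in dividing cells. *Dnmt1*, the maintenance methyltransferase, fell from 205 ± 3.33 to 48.3 ± 4.17 CPM (log2 fold change -2.08), its recruiter *Uhrf1* from 114 ± 6.77 to 6.94 ± 0.890 CPM (-4.04) and the chromatin remodeler *Hells* from 64.2 ± 3.89 to 7.59 ± 1.64 CPM (-3.08), each past the DEG limit. The proliferation gene *Mki67* fell by 5.94 on the log2 scale in the same libraries, and its part in these values was not tested. *Trim28*, the corepressor that protects imprints, fell from 250.2 ± 5.56 to 170.0 ± 21.9 CPM (-0.56, adjusted p = 0.00101, edgeR). *Zfp57*, the zinc finger protein that recruits it, had 16.6 ± 0.946 and 13.8 ± 0.849 CPM (-0.26, adjusted p = 0.0205, edgeR), a call lost in 5 of 13 other settings, among them leaving out control replicate 1, senescent replicate 1 or senescent replicate 2, with adjusted p from 0.0551 to 0.0787.

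Promoter sequences were searched because the study's samples were made for work on BMAL1, which binds E-boxes, and because ZFP57 and PLAGL1 have known motifs. RefSeq windows of 300 bases (250 before and 50 after a transcript start, GRCm38.p6) were found for 8 of the 10 genes, 12 windows in all, and none was used for *H19* and *Peg10*. The letters searched on both strands were CACGTG for the E-box, TGANTCA for AP-1, TGCCGC for ZFP57 and GGGGCCCC for PLAGL1. The windows of *Mest* (chr6:30737800-30738099, plus strand), which fell most, *Peg3* (chr7:6730370-6730669, minus strand), the window with PLAGL1 letters, and *Plagl1* (chr10:13090582-13090881, plus strand), the window with an E-box, are shown with matches in capitals, ZFP57 letters being read on either strand.
Mest promoter window: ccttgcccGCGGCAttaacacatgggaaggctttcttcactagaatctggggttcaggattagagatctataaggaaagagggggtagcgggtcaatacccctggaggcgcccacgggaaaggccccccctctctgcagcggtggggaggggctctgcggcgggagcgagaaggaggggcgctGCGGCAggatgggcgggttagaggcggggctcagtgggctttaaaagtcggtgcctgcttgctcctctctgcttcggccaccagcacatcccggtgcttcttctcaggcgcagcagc
Peg3 promoter window: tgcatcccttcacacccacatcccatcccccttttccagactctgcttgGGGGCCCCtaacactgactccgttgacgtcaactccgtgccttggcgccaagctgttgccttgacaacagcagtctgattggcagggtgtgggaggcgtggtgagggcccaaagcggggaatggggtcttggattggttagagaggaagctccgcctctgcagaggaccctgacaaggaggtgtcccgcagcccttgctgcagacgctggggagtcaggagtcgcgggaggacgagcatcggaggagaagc
Plagl1 promoter window: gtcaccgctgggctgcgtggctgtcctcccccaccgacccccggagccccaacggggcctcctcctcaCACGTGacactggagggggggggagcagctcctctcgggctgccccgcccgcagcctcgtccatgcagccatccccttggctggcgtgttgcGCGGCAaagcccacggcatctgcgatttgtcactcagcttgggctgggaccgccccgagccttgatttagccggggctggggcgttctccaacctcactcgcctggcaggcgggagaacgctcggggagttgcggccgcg
The E-box letters occurred in 1 of the 12 windows, that of *Plagl1*, and in 7.15% of all 32851 promoter windows. AP-1 letters occurred in 0 of the 12 and in 7.81% of all windows. ZFP57 letters occurred in 6 of the 12, from *Mest*, *Zim1*, *Plagl1*, *Grb10* and *Meg3*, and in 11.6% of all windows. Of these 6, 2 are *Mest* windows that start 3 bases apart and hold the same matches, so they are a single sequence counted again. PLAGL1 letters occurred in 1 of the 12 and in 1.08% of all windows. The 3 windows shown have a GC content of 62.7%, 61.3% and 70.7%, where the median of all windows is 52.7%. A match is only an occurrence of the letters, and no binding was measured in these data.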

How the data were processed

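RNA-seq libraries were prepared from 200 ng of RNA with a stranded mRNA kit and sequenced as paired ends of 100 bases. Per the study's methods, the authors mapped reads to mm10 with STAR in MAPRSeq and counted them on genes with Subread, and they deposited raw counts per gene without normalization. Strand setting and handling of multi-mapping reads are not given in the sources used here.

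From the counts, genes were kept by filterByExpr in edgeR 4.0.16 (R 4.3.3), scaled by TMM and compared by the robust quasi-likelihood test, two-sided, with group as the only term and Benjamini-Hochberg adjustment over 17589 genes. A call is an adjusted p under 0.05. SE was derived from the F statistic. CPM per kb used the lengths in the count table. Ratios of counts within a library were compared by exact permutation.

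Named were the 10 members, all cluster neighbours, other imprinted and imprint maintenance genes past the DEG limit with a mean of at least 100 counts, *Igf2* and *Cdkn1c*, up to 5 genes of smallest p from the growth receptor list, of which 1 is not reported here, and the 4 group check genes. *Trim28* and *Zfp57* were added after their values were seen, as were the microRNA rows. The members and lists, including markers of 8 cell types, were chosen with earlier results of these data known. Groups came from the sample labels. Alternatives were RLE scaling, library size alone, other filters, the exact test, DESeq2 1.42.0, the DEG limit, the replicate number as a block, and each library left out in turn. The scripts were tested on simulated data. Total counts of 50288454 to 82229553 make 3 counts, the limit for a count of 0, equal 0.0355 to 0.0613 CPM. This covers counting error alone, as reads carried no molecular identifiers.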

Additional observations from a re-analysis of the deposited data

How the results depend on the processing

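At an adjusted p of 0.05, the 9 genes that passed kept their direction and their call under every other scaling, filter, test, block and left-out library in which they were tested. *Plagl1* never passed (lowest adjusted p 0.0815, edgeR or DESeq2), with a log2 fold change from -0.09 to 0.04. *Mest* ranged from -3.22 to -3.08 and *H19* from -1.51 to -1.41. With at least 10 counts in every library *Zim1* left the test and 1 of 9 genes was higher, and under the DEG limit 1 of 10 was higher and 5 were lower, as *Ndn*, *Meg3* and *Peg3* had smaller fold changes. With library size alone 3 growth receptor genes were higher, against 1. The filter of at least 10 counts, which tests fewer genes, left 0 higher chondrocyte, 0 skeletal muscle, 0 keratinocyte and 0 Schwann cell and melanocyte markers, 1 adipocyte, 2 endothelial and 2 macrophage markers. Over all genes 6360 were higher and 6005 lower, against 5964 and 5660 with a replicate block. Samples with the same replicate number did not deviate together (r = -0.15, 0.14 and -0.12 over genes, and not every library correlated best with its own number), so no pairing was assumed, and 7 genes of the 10 were lower and 2 higher with the block too. Without 1 library at a time, 5930 to 7052 genes were higher and 5284 to 6643 lower. The settings for cluster neighbours and other listed genes were added after seeing the data. Depth limits *Zim1*, *Rtl1*, *Magel2* and *Usp29*, where a few counts decide the level. Exonic lengths of *H19*, *Zim1* and *Ndn* in the count table differ from those of GENCODE M21, which moves levels and shares per kb, most for *Ndn* and *Zim1*, but no fold change. The comparison of lengths was added after seeing the data.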
